A study of Mus musculus with 15 samples.

Results

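The interferon regulatory factors (IRFs) are transcription factors that share a DNA-binding domain and act downstream of pattern recognition receptors and of interferon and cytokine receptors. The 8 genes *Irf1*, *Irf2*, *Irf3*, *Irf4*, *Irf5*, *Irf7*, *Irf8* and *Irf9* were chosen by family membership, by name, out of 78317 gene identifiers in the deposited count table. All 8 were found, and all 8 passed the filter on low counts that left 16654 genes for testing. They were followed in MH-S cells, an SV40-transformed murine alveolar macrophage cell line, across 15 RNA-seq libraries in 5 groups of 3. M0 cells received medium only. M1 cells received LPS at 1 µg/mL with IFN-γ at 20 ng/mL, and M2 cells received IL-4 at 20 ng/mL. The remaining cells received microrods at 0.1 mg/mL, built on a framework of either calcium phosphate (CaP) or silica (SiO2) nanoparticles and coated with the same polymers, and each of the 3 libraries of a rod type came from its own particle batch. Exposure lasted 24 h in every group. The cells of all groups come from 1 immortalised line, and the study describes the rod batches as tested in separate wells at a single cell passage, so *p*-values measure the spread between wells or libraries, which may be technical.

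By background knowledge, IRF3 and IRF7 are activated by kinases downstream of nucleic acid and LPS sensors and drive type I interferon genes, and IRF5 serves a similar route to inflammatory cytokines. IRF1 is induced by IFN-γ, and IRF2 opposes it at many of the same sites. IRF9 is the DNA-binding subunit of ISGF3, the complex that switches on interferon-stimulated genes. IRF8 is a lineage factor of monocytes and macrophages, and IRF4 is known for its role in IL-4-driven macrophage polarization.

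Promoter sequences of the members are shown because several of these genes are themselves described as targets of the pathways stimulated here. In total, 11 windows covering the 250 bases upstream of a RefSeq transcription start (GRCm38.p6) matched the 8 members. Each was searched on both strands for the IFN-γ-activated site GAS (TTCNNNGAA), the IRF-type site ISRE (GAAA, any 2 bases, GAAA), a STAT6-type site (TTC, any 4 bases, GAA) and a kappaB site (GGG, any 3 bases, TTCC). Matches are in capitals, run 5′ to 3′ on the gene's strand and do not overlap each other. The windows shown lie at chr11:53769764-53770013 (plus strand) for *Irf1*, chr8:46739495-46739744 (plus) for *Irf2*, chr8:120736108-120736357 (plus) for *Irf8*, chr13:30748983-30749232 (plus) for *Irf4* and chr7:141266425-141266674 (minus) for *Irf7*. The first 3 are shown for their matches, and the last 2 because these genes carried the largest differences below.
Irf1: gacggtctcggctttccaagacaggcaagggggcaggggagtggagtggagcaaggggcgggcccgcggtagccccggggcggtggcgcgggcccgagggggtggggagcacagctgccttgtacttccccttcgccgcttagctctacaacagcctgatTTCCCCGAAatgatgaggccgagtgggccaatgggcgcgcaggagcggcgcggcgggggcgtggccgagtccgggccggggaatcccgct
Irf2: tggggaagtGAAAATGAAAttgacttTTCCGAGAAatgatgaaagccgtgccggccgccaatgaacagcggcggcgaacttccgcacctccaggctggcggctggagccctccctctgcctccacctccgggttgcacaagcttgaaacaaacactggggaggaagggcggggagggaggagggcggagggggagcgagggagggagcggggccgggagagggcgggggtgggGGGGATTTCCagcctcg
Irf8: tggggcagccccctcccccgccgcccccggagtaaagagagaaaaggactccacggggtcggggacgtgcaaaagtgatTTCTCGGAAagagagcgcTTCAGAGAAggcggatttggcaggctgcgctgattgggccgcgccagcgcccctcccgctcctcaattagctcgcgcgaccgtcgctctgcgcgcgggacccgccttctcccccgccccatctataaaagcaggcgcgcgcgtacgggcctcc
Irf4: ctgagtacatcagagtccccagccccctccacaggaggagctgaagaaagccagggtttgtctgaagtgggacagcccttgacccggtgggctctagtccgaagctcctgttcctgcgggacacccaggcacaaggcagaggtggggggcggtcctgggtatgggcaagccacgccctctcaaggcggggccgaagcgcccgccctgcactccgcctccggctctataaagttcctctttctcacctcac
Irf7: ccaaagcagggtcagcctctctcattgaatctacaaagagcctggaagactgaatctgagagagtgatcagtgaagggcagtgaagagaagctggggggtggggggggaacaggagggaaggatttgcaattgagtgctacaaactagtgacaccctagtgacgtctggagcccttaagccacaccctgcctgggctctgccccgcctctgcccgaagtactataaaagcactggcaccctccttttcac
The *Irf1* window held a GAS match whose first base lies at -90 from the start. The *Irf2* window held an ISRE match at -241, a GAS match at -224 and a kappaB match at -17. The *Irf8* window held GAS matches at -171 and -153. The windows of *Irf3*, *Irf4*, *Irf5*, *Irf7* and *Irf9* held none of these letter patterns. GAS matches were thus present in 3 of the 11 member windows, whereas 7.02% of all 32851 promoter windows of the same length held one. The corresponding shares of all windows were 2.98% for ISRE, 5.85% for the STAT6-type site and 4.65% for kappaB. A match is a pattern of letters and not evidence of binding.

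Library totals ranged from 8459643 to 68750050 counts. Replicates within every group differed beyond sampling noise, so no library was treated as a repeat of another. Of 13 macrophage markers, 10 had counts in every library, among them *Cd68* at 677 to 1322 CPM (counts scaled to library size). The markers that define alveolar macrophages were low, with *Siglecf* at 0 to 0.478 CPM, *Pparg* at 0.0860 to 0.658 CPM, *Marco* at 0 to 2.82 CPM and *Itgax* at 1.57 to 4.93 CPM. Summed markers of lymphocytes reached at most 0.516 CPM and those of lung epithelium at most 0.819 CPM. Levels are given below as CPM scaled by TMM (trimmed mean of M-values), which corrects for library composition, and comparisons between genes as CPM per kb of the longest coding transcript.

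The family in untreated cells was dominated by 3 members. Per kb of transcript, *Irf5* made up 35.4% ± 2.06 (SD, n = 3) of the summed M0 level of the 8 genes, *Irf8* 32.2% ± 2.53 and *Irf3* 19.2% ± 2.21. *Irf9* followed with 4.40%, *Irf1* with 2.99%, *Irf2* with 2.98% and *Irf7* with 2.74%, while *Irf4* stood at 0.0767%. *Irf7* took 12.9% ± 1.11 of the family in M1 cells and 11.7% ± 1.30 in M2 cells, against 2.96% ± 0.638 with CaP microrods and 4.37% ± 0.565 with SiO2 microrods. *Irf8* made up 16.1% ± 3.31 in M2 cells, below its share in each of the other groups. The summed family level was 114.3 ± 23.8 CPM per kb in M0 cells and 161 ± 39.0 with CaP microrods, the group with the highest mean, and its library values overlapped between all pairs of groups.

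**Figure D1:**
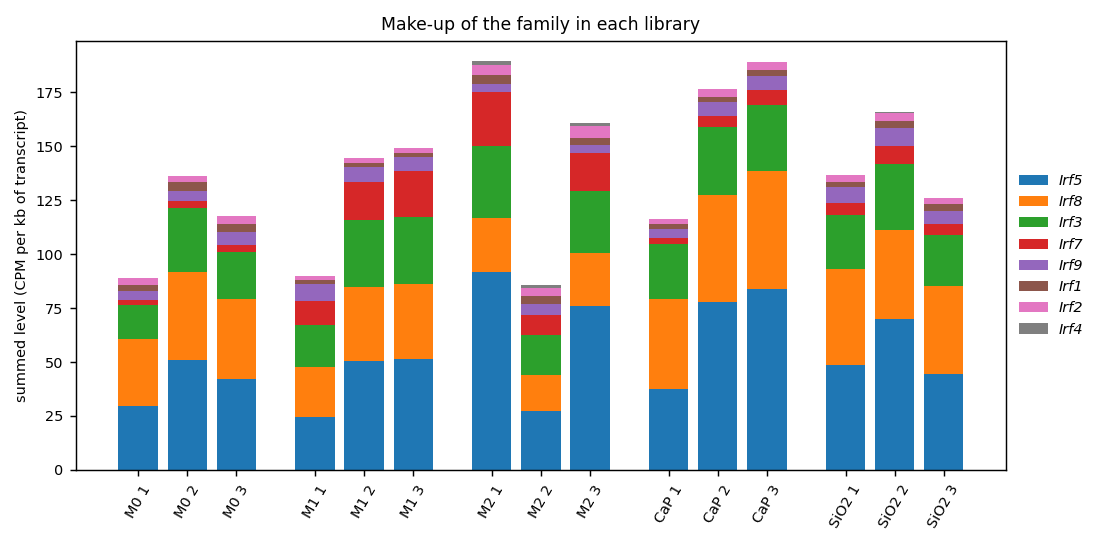
Stacked bars give the level of each factor in CPM per kb of transcript in each of the 15 libraries, starting at 0 and grouped by condition. *Irf5*, *Irf8* and *Irf3* fill most of every bar, and the *Irf7* segment is widest in the M1 and M2 libraries, at 12.9% and 11.7% of the family on average.

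LPS with IFN-γ changed 2 of the 8 members, *Irf7* upward and *Irf1* downward. Following the study, a gene counted as changed if its adjusted *p* was below 0.05 and its log2 fold change exceeded 0.5 in either direction. By that rule 14.1% of all 16654 genes changed between M1 and M0, 9.7% upward and 4.37% downward. *Irf7*, the factor that amplifies type I interferon expression, stood at 5.82, 7.68 and 7.30 CPM in the M0 libraries and at 24.6, 39.4 and 47.2 CPM in the M1 libraries. Every M1 library thus lay above every M0 library. The rise was 5.41-fold (log2 fold change 2.44, SE 0.40, adjusted *p* = 0.00110), and it passed the test in all 24 alternative fits. In bulk RNA, more expressing cells and more RNA per cell cannot be told apart.

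*Irf1*, the IFN-γ-inducible activator, was lower after 24 h of M1 stimulation. It stood at 6.14, 8.20 and 7.41 CPM in M0 cells and at 4.21, 4.17 and 4.28 CPM in M1 cells. The M1 libraries were the 3 lowest of all 15 for this gene. The fall was 1.7-fold (log2 fold change -0.77, SE 0.21, adjusted *p* = 0.0290). This call is near the threshold: without M0 replicate 2, M0 replicate 3 or M1 replicate 1, 2 or 3, the adjusted *p* was 0.0956, 0.0624, 0.0689, 0.0943 and 0.0802, respectively. Without the filter on low counts it was 0.210, and at equal depth 0.0722.

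*Irf2*, the antagonist of *Irf1*, was measured at 7.09 to 9.15 CPM in M0 and at 4.56 to 5.64 CPM in M1 cells. The groups did not overlap, but the difference did not pass the test (log2 fold change -0.66, SE 0.25, adjusted *p* = 0.0988). It passed without M2 replicate 2 (adjusted *p* = 0.0435) and without CaP replicate 1 (0.0469). *Irf9*, the DNA-binding subunit of ISGF3, showed 11.6 to 18.2 CPM in M0 and 19.5 to 22.7 CPM in M1 cells, again without overlap, and also did not pass (log2 fold change 0.51, SE 0.23, adjusted *p* = 0.159). With these, 4 of the 8 members had groups that did not overlap, whereas 32.2% of all genes did. *Irf3*, *Irf4*, *Irf5* and *Irf8* overlapped between M0 and M1, with log2 fold changes of 0.30, -0.64, 0.05 and -0.25. The 95% interval for *Irf8*, -0.67 to 0.18, excludes a fall to 0.5 times the M0 level, whereas that for *Irf5*, -0.87 to 0.97, leaves room for changes in either direction.

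**Figure D2:**
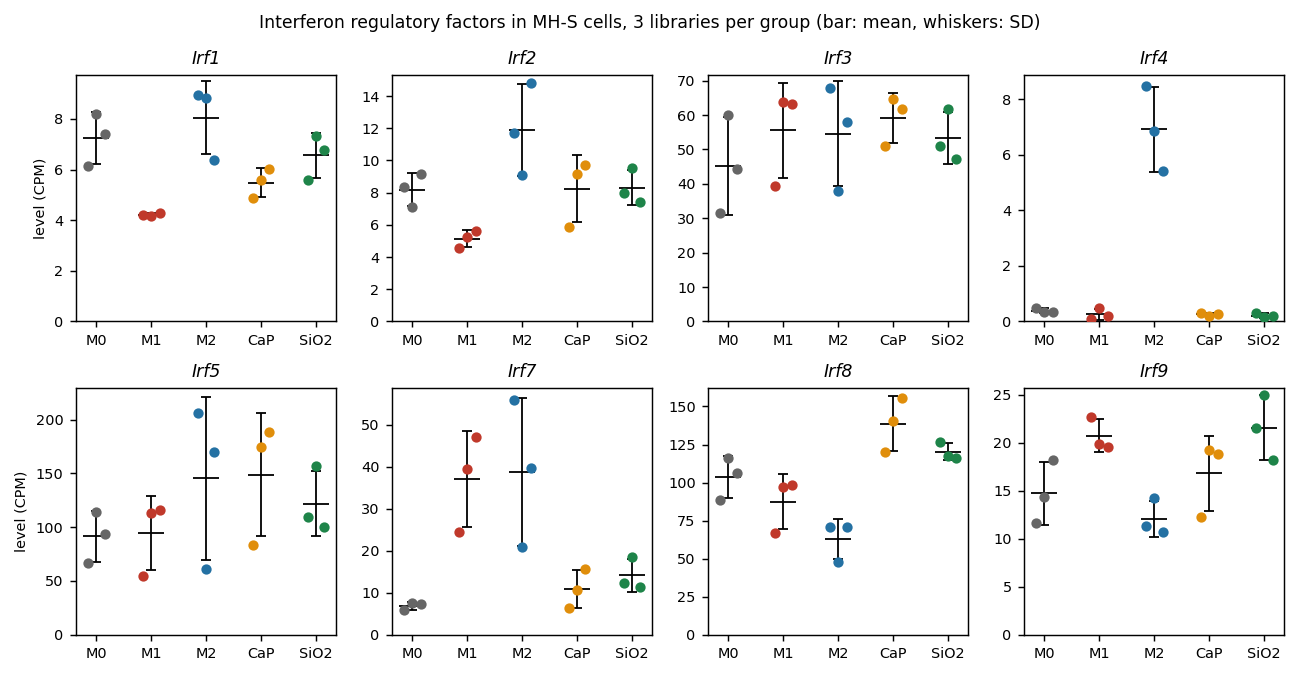
Each panel gives 1 factor, with points for the 3 libraries of each group in CPM on an axis from 0, a bar at the mean and whiskers of 1 SD. *Irf4* is high only in M2 cells (5.41 to 8.46 CPM), *Irf7* is high in M1 and M2 cells, and *Irf3* and *Irf5* overlap across all groups.

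IL-4 raised *Irf4* and *Irf7* (2 of 8 members, against 4.13% of all genes changed, 2% upward and 2.13% downward). *Irf4* stood at 0.50, 0.33 and 0.35 CPM in M0 cells, from 3 to 19 counts, and at 8.46, 6.84 and 5.41 CPM in M2 cells, from 52 to 378 counts. The lowest M2 library exceeded the highest library of any other group. The rise was 15.8-fold (log2 fold change 3.98, SE 0.32, adjusted *p* = 3.04e-06) and passed in all 23 alternatives in which the gene could be tested. In the other 4 groups *Irf4* did not exceed 0.50 CPM.

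*Irf7* rose in M2 cells to 55.8, 20.8 and 39.7 CPM, all above the M0 libraries. The fold was 5.7 (log2 fold change 2.51, SE 0.40, adjusted *p* = 0.00264), and the call held in all 24 alternatives. Between M1 and M2 cells *Irf7* differed by -0.08 on the log2 scale, with a 95% interval of -0.87 to 0.72. Differences of either sign inside that interval are not excluded. *Irf8* was lower in M2 cells, at 70.6, 48.0 and 71.0 CPM against 88.8, 116 and 106 CPM, without overlap, and 15.2% of all genes likewise did not overlap. Its difference fell just outside the threshold (log2 fold change -0.71, SE 0.20, adjusted *p* = 0.0622) and passed with DESeq2 (0.0214), with a correction for GC content (0.0184) and without M1 replicate 1 (0.0429). *Irf1*, *Irf2*, *Irf3*, *Irf5* and *Irf9* overlapped between M0 and M2 and did not pass, with log2 fold changes of 0.13, 0.57, 0.28, 0.68 and -0.29.

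Set directly against each other, M1 and M2 cells differed in 4 of the 8 members, where 16.1% of all genes differed, 10.6% higher and 5.46% lower in M1 cells. *Irf4* was 24.5-fold lower in M1 than in M2 cells (log2 fold change -4.62, SE 0.38, adjusted *p* = 6.98e-07). *Irf2* was 2.36-fold lower (adjusted *p* = 0.00340), at 4.56 to 5.64 CPM in M1 against 9.08 to 14.8 CPM in M2 cells, and passed in all 24 alternatives. *Irf1* was 1.87-fold lower (adjusted *p* = 0.0106, but 0.0652 without the filter, 0.0540 with the 6 libraries alone and 0.0616 at equal depth) and *Irf9* 1.74-fold higher (adjusted *p* = 0.0291) in M1 cells. The *Irf9* call was lost, at adjusted *p* up to 0.121, in 5 of the 15 fits without 1 library, namely without any 1 of the M1 libraries and without M2 replicate 1 or 3. *Irf5* passed only without M2 replicate 2 (adjusted *p* = 0.0489), and *Irf8* only with the correction for GC content (0.0363).

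**Figure D3:**
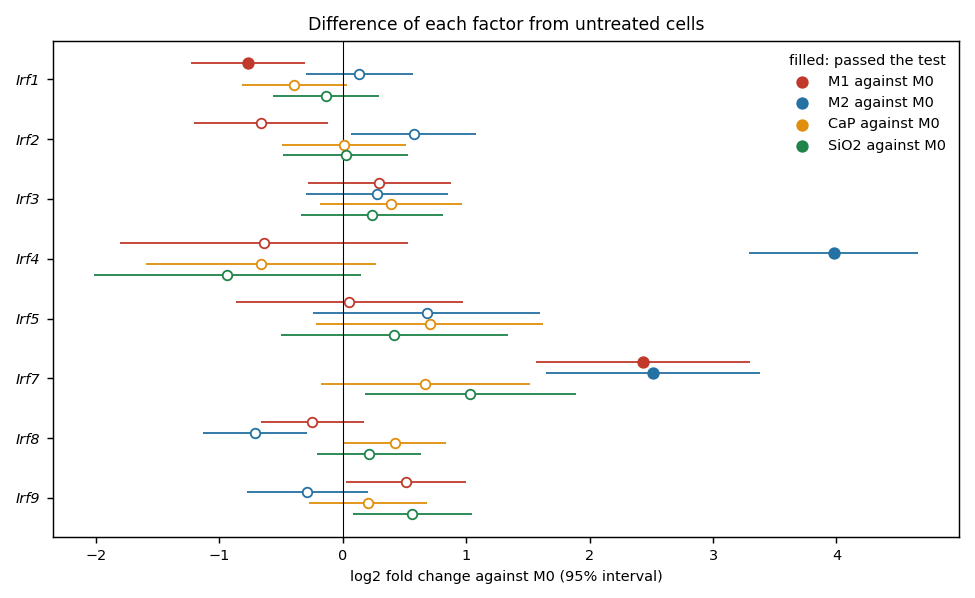
Points give the log2 fold change of each factor against M0 and lines the 95% interval from the model of all 15 libraries, with filled points for differences that passed the test. The filled points are *Irf1* and *Irf7* for M1 and *Irf4* and *Irf7* for M2, and none belongs to a rod group.

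Neither rod type changed a member against M0. With CaP microrods, 0.654% of all genes changed and 0 of 8 members did, by edgeR and by DESeq2 alike, and 1 member had an unadjusted *p* below 0.05, against 15.8% of all genes. That member was *Irf8*, at 120, 141 and 156 CPM against 88.8, 116 and 106 CPM in M0 cells. All CaP libraries lay above all M0 libraries, yet the difference did not pass (log2 fold change 0.42, SE 0.19, 95% interval 0.00068 to 0.84, adjusted *p* = 0.316). *Irf1* stood at 4.86 to 6.01 CPM, below each M0 library, with a log2 fold change of -0.39 (adjusted *p* = 0.354). *Irf7* stood at 6.44, 10.7 and 15.6 CPM, overlapping M0, with a 95% interval of -0.18 to 1.52. In all, 3 members had groups that did not overlap, the third being *Irf4*, at 3 to 14 counts against 3 to 19 in M0 cells. Of all genes, 17.4% did not overlap.

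With SiO2 microrods, 0.264% of all genes changed and again 0 of 8 members, by both tools, with 2 members and 8.17% of all genes at an unadjusted *p* below 0.05. These were *Irf7*, at 12.3, 18.6 and 11.5 CPM against 5.82 to 7.68 CPM in M0 cells, and *Irf9*, at 18.2 to 24.96 CPM against 11.6 to 18.2 CPM. The SiO2 libraries of *Irf7* lay above all M0 libraries (log2 fold change 1.03, SE 0.40, adjusted *p* = 0.493). The lowest SiO2 library of *Irf9* lay just above the highest M0 library (log2 fold change 0.56, SE 0.22, adjusted *p* = 0.513). Non-overlap held for 3 members, the third being *Irf4* at 2 to 6 counts against 3 to 19 in M0 cells, and for 18% of all genes. The 95% intervals of the SiO2 differences, 0.18 to 1.89 for *Irf7* and 0.08 to 1.04 for *Irf9*, do not exclude differences of more than 2-fold, so a missed call does not show that these genes were unaltered.

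CaP and SiO2 microrods differ in the mineral of the framework. They were compared at 1 dose, equal by mass, and 1 time, and by the study's account the number of rods reaching the cells at equal mass differs between the types. For these 8 comparisons the adjusted *p* was 1 throughout, and 0.018% of all genes differed. The log2 differences, CaP minus SiO2, ran from -0.36 for *Irf7* (95% interval -1.18 to 0.45) to 0.29 for *Irf5* (-0.63 to 1.20). The narrowest intervals were those of *Irf8* (-0.21 to 0.62) and *Irf1* (-0.68 to 0.17). Differences of more than 2-fold lay outside the intervals of *Irf1*, *Irf2*, *Irf3*, *Irf8* and *Irf9* but inside those of *Irf4*, *Irf5* and *Irf7*.

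Against the stimulated cells, the rod groups differed in *Irf4*, *Irf7* and *Irf8*, with the same libraries reused across comparisons. *Irf1* did not pass against M1 cells (adjusted *p* = 0.268 for CaP and 0.0806 for SiO2 microrods). *Irf7* was 3.4-fold lower with CaP (adjusted *p* = 0.00699) and 2.64-fold lower with SiO2 microrods (0.0304) than in M1 cells, in comparisons where 12.7% and 10.5% of all genes differed. *Irf8* was 1.59-fold higher with CaP microrods than in M1 cells (adjusted *p* = 0.0393). Against M2 cells, *Irf8* was 2.19-fold higher with CaP (adjusted *p* = 0.00328) and 1.9-fold higher with SiO2 microrods (0.0160), and *Irf4* was 25-fold and 30.1-fold lower. *Irf7* was 3.59-fold lower with CaP (0.0113) and 2.78-fold lower with SiO2 microrods (0.0474) than in M2 cells. Of all genes, 4.46% and 3.65% differed from M2 cells. With 1 library left out in turn, several of these calls were lost. *Irf8* between CaP and M1 was lost in 8 of 15 fits (adjusted *p* up to 0.163), and *Irf7* between SiO2 and M2 in 11 (up to 0.221). *Irf7* between SiO2 and M1 was lost in 4 (up to 0.129), without M1 replicate 2 or 3 or SiO2 replicate 1 or 3. *Irf8* between SiO2 and M2 was lost in 3 (up to 0.0709), without M2 replicate 2 or SiO2 replicate 1 or 3, and *Irf7* between CaP and M2 without M2 replicate 1 (0.0560).

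Ordered by mean level over the 5 groups, most neighbours did not differ. For *Irf4* the only step that passed was from M2 to M0, and for *Irf7* it was from M1 to SiO2 microrods, between a pair of groups of like level above (M2, M1) and SiO2, CaP and M0 below. For *Irf1* the order was M2, M0, SiO2, CaP and M1, for *Irf2* M2, SiO2, CaP, M0 and M1, for *Irf8* CaP, SiO2, M0, M1 and M2, and for *Irf9* SiO2, M1, CaP, M0 and M2. No step between neighbours passed for these 4 genes, nor for *Irf3* and *Irf5*.

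Some members varied together between replicates. In each of the 5 groups the lowest library was the same for *Irf3*, *Irf5*, *Irf7* and *Irf8*, namely replicate 1 of M0, M1 and CaP, replicate 2 of M2 and replicate 3 of SiO2. The same libraries were the lowest of their group for the 1512 genes with an exonic GC content of at least 57.1%, whose median deviation from the group mean was -0.16, -0.28, -0.19, -0.35 and -0.02 on the log2 scale, in the order just named. For SiO2 the margin was small, with replicate 3 at -0.016 and replicate 1 at -0.011. *Irf5* ranged from 60.7 to 206 CPM within M2. The lowest library was also the lowest for these GC-rich genes in 4 of 5 groups for *Irf2*, 3 for *Irf9*, 2 for *Irf1* and 1 for *Irf4*. The GC content was 56.7% for *Irf3*, 55.7% for *Irf5*, 55.4% for *Irf7* and 52.8% for *Irf1*. It was 51.7% for *Irf8*, 50.4% for *Irf9*, 47.6% for *Irf4* and 46.4% for *Irf2*. The part of GC content in the spread was not tested. With a per-library correction for GC content, the SE of the *Irf7* difference between M1 and M0 was 0.31 in place of 0.40, and the same 2 members passed. The SE was 0.17 in place of 0.27 for *Irf3*, 0.33 in place of 0.43 for *Irf5* and 0.17 in place of 0.20 for *Irf8*. For *Irf2* it was 0.26 in place of 0.25 and for *Irf9* 0.24 in place of 0.23. For *Irf1* it was 0.21 in both fits and for *Irf4* 0.54 in place of 0.55.

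**Figure D4:**
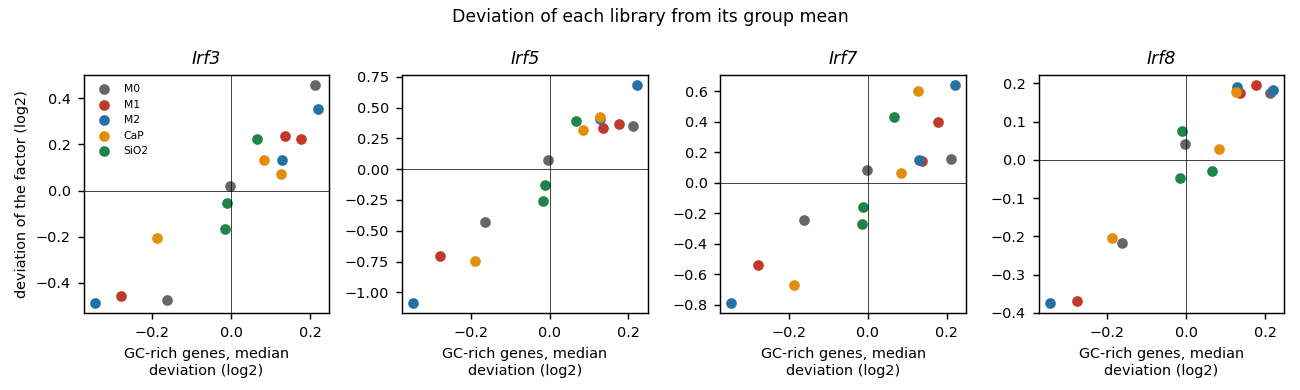
Each point is 1 of 15 libraries, with the median deviation of GC-rich genes from their group mean on the horizontal axis and the deviation of the named factor on the vertical axis, both on the log2 scale. The libraries lowest for GC-rich genes, M2 replicate 2 (-0.35) and M1 replicate 1 (-0.28), are also low for *Irf3*, *Irf5*, *Irf7* and *Irf8*.

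Exons of 5 members overlap those of a neighbouring gene in the GENCODE annotation, and the library protocol does not mark strand. The overlap was largest for *Irf5*, where *Tnpo3* on the opposite strand covers 14.1% of its exonic bases and was itself measured at 25.6 to 53.1 CPM. For *Irf1*, *Irf3*, *Irf7* and *Irf9* the overlap was 3.40%, 2.56%, 1.19% and 2.28%, so reads of these stretches cannot be assigned with certainty.

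Among genes upstream of the factors, receptors and relays moved in M1 cells. The receptor subunit *Ifngr1* was the 1 of 7 tested ligand and receptor genes to change, falling from 113.7 to 55.7 CPM (log2 fold change -1.03, adjusted *p* = 0.00197), while *Ifng* was at 0 counts in every library and *Ifnb1* at 0 or 1 count. Of 10 genes of the JAK-STAT relay, 5 rose, among them *Tyk2* (log2 fold change 1.71), *Jak2* (1.63), *Stat2* (1.06) and *Stat3* (0.84), with a list median of 0.78 against -0.01 for all genes. *Tyk2* stood at 14.4, 54.0 and 17.1 CPM in M1 against 7.41 to 9.64 CPM in M0 cells, and without M1 replicate 2 its log2 fold change was 0.84 (adjusted *p* = 0.0459). The calls of *Jak2* and *Stat2* were each lost in 10 of 15 fits without 1 library (adjusted *p* up to 0.158 and 0.173). Of 20 tested sensors, adaptors and kinases that act upstream of IRF3, IRF5 and IRF7, edgeR called 1, the IRF3 and IRF7 kinase *Ikbke* (14.2 to 42.0 CPM, adjusted *p* = 0.00670), and DESeq2 called 2 higher, *Ikbke* and *Irak2*. In M2 cells 0 of the 10 relay genes passed with edgeR or DESeq2, and 2 had an unadjusted *p* below 0.05, against 17.2% of all genes. *Il13ra1*, a receptor chain for IL-4 and IL-13, fell (log2 fold change -1.42) and so did the RNA sensor *Rigi* (-1.27), whose call was lost without M0 replicate 1 or 3 or M2 replicate 1 or 3 (adjusted *p* up to 0.225).

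Genes that act downstream separated M1 from M2 cells. Of 19 tested genes known to be switched on by ISGF3, 13 rose and 0 fell in M1 cells, with a median log2 fold change of 1.23. *Isg15*, a ubiquitin-like modifier, rose most (1.02 to 9.55 CPM, log2 fold change 3.42). The antiviral membrane protein gene *Bst2* rose least (0.99) and was the most abundant, at 128 CPM in M1 cells, next to *Oas1a* (119 CPM). In M2 cells 1 of the 19 rose and 2 fell, with a median of -0.32. The gene that rose was *Usp18*, a brake on type I interferon signalling, from 3.03 to 22.7 CPM (log2 fold change 2.95, adjusted *p* = 1.32e-05), and those that fell were *Rtp4* (-1.82) and *Oasl2* (-1.53), the latter lost without M2 replicate 3. *Usp18* rose in M1 cells as well (log2 fold change 2.60), so that it moved as *Irf7* did.

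Of 15 tested genes known to depend on IRF1 or IRF2, 5 rose in M1 cells and 0 fell, although *Irf1* itself was lower. *Ptgs2*, encoding the inducible cyclooxygenase, reached 40.4 CPM from 0.229 CPM. *Il27* reached 11.8 CPM, and the guanylate-binding protein genes *Gbp2* and *Gbp3* 3.22 and 2.20 CPM. *Nos2*, the inducible nitric oxide synthase, was at 0 counts in all M0 libraries and at 6.20 CPM in M1 cells, at least 17.8-fold higher when M0 is set to 3 counts in its smallest library. In M2 cells 0 of 15 passed with edgeR and 1 with DESeq2, and 3 had an unadjusted *p* below 0.05, against 17.2% of all genes. Set directly against M2 cells, M1 cells were higher in 15 of the ISGF3 genes and lower in 0, by both tools. Of the genes that depend on IRF1 or IRF2, 6 were higher in M1 than in M2 cells and 2 lower, the immunoproteasome subunit genes *Psmb9* (log2 difference -0.69) and *Psmb10* (-0.68). The *Psmb9* call was lost without any 1 of the M1 libraries and without M2 replicate 1 (adjusted *p* up to 0.0799).

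The partners of IRF4 and IRF8, factors that bind with them at composite sites, were tested for 7 genes. By edgeR *Batf* and *Spib* rose in M1 cells and *Batf3* rose in M2 cells, where DESeq2 called 2 higher, *Batf3* and *Spib*. *Spib* had a mean of 1.03 CPM in both M1 and M2 cells against 0.152 CPM in M0 cells, from 4 to 20 counts in the M1 libraries. Its adjusted *p* was 0.0478 for M1, a call lost in 10 of 15 fits without 1 library (up to 0.289), and 0.0504 for M2, and M1 and M2 cells differed by -0.15 on the log2 scale (0.879). *Batf* was at 0 counts in all M0 and all M2 libraries and at 11.2, 14.7 and 13.8 CPM in M1 cells, at least 38.1-fold above the same floor. *Batf3* stood at 11.9 to 13.4 CPM in M0, at 38.2 to 56.2 CPM in M2 and at 6.90 to 9.97 CPM in M1 cells. Among 14 brakes and co-regulators, which include *Isg15* and *Usp18* of the ISGF3 list, 4 rose and 1 fell in M1 cells, and 2 rose and 2 fell in M2 cells. The fall in M1 cells, of *Otud1*, was lost in 9 of 15 fits without 1 library (adjusted *p* up to 0.156). In M2 cells *Otud1* and *Trim30a* fell, calls lost in 2 and 12 of 15 fits (up to 0.180 and 0.394). DESeq2 called *Otud1* lower in M2 cells only and did not call *Trim30a*. *Socs1*, a feedback inhibitor of JAK kinases, rose in both, to 1.81, 7.66 and 10.9 CPM in M1 and to 75.3, 12.5 and 139 CPM in M2 cells, from 0.369 to 0.520 CPM in M0 cells. Its M1 call was lost without M0 replicate 1 (adjusted *p* = 0.0905) or M1 replicate 3 (0.0575).

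**Figure D5:**
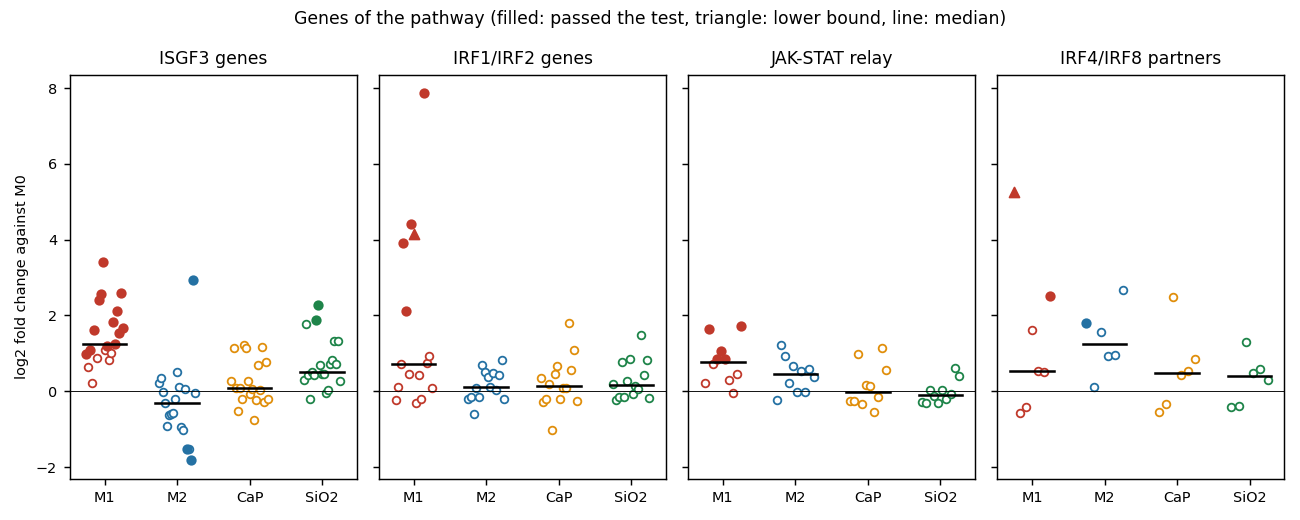
Each point is 1 gene of 4 pathway lists, with its log2 fold change against M0 on the vertical axis and the stimulus on the horizontal axis. Filled points passed the test, and triangles are lower bounds for genes at the counting floor in M0. Genes at the floor in both groups are left out, as are those at the floor in M0 whose mean in the other group does not exceed it. Lines are list medians, the ISGF3 line lying at 1.23 for M1 and at -0.32 for M2.

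In rod-treated cells only the list of ISGF3 genes held any that passed with edgeR. With SiO2 microrods 2 of 19 rose, *Ifit3* (0.512 to 1.97 CPM, log2 fold change 1.88, adjusted *p* = 0.0315) and *Ifit3b* (2.27, adjusted *p* = 0.0476), which are near-identical copies that can share reads and are uncertain as separate genes. With 1 library left out these calls were lost in 9 and 13 of 15 fits (adjusted *p* up to 0.405 and 0.481). The list median was 0.50 against -0.02 for all genes, and 17 of 19 fitted differences were above 0. The mean log2 CPM of the 19 genes was 1.65 to 1.82 in the M0 libraries, 1.86 to 2.06 with CaP, 2.32 to 2.62 with SiO2 microrods, 3.10 to 3.32 in M1 and 1.29 to 1.57 in M2 cells. The libraries of the 5 groups thus did not overlap on this mean. The gap between M0 and CaP was narrow, from 1.82 to 1.86. The share of single genes that did not overlap between these 2 groups, 17.4%, does not apply to a mean of 19 genes. How often the mean of other sets of 19 genes separates the groups was not tested. With CaP microrods 0 of 19 passed with edgeR or DESeq2 and 6 had an unadjusted *p* below 0.05, against 15.8% of all genes. The median with CaP was 0.08 against 0.06 for all genes. Between CaP and SiO2 microrods 0 of 19 passed with either tool, and 6 had an unadjusted *p* below 0.05, against 1.66% of all genes. Each of the 19 fitted differences was lower with CaP, with a median of -0.49. In the other 6 pathway lists 0 genes passed with either rod type by edgeR. By DESeq2 1 brake or co-regulator rose with SiO2 microrods, the same *Usp18*. With CaP microrods 1 upstream gene rose, *Irak2* (log2 fold change 1.38, adjusted *p* = 0.00411). In these lists up to 6 genes had an unadjusted *p* below 0.05 with CaP microrods, against 15.8% of all genes. Those 6 were of 20 upstream genes and of 15 that depend on IRF1 or IRF2. With SiO2 microrods it was up to 5, of the 20 upstream genes, against 8.17% of all genes.

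Summed markers of fibroblasts and endothelium were 0.347 to 0.846 CPM in M0, 1.26 to 1.63 CPM in M1 and 0.921 to 1.77 CPM in M2 cells, and 1 of the 8 markers had a count in every library. The summed macrophage markers were lower in M2 cells (2088 to 2917 CPM) than in M0 cells (3234 to 4396 CPM). Of the abundant markers, *Lyz2* fell from a mean of 1847 to 368 CPM (adjusted *p* = 3.10e-06), *Adgre1* rose from 61.8 to 195 CPM (0.00908), and *Cd68* (979 and 954 CPM in M0 and M2), *Tyrobp* (706 and 715 CPM) and *Csf1r* (165 and 160 CPM) did not pass. The part of either in the differences of the factors was not tested.

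The genes whose profile over the 15 libraries was most like that of a member were found by the root mean square difference of mean-centred log2 CPM, over 10727 genes with at least 5 CPM in a group. Nearest to *Irf7* were *Usp18* (0.37), *Glipr2* (0.38) and *Slc31a2* (0.42), against a median of 1.10 over all those genes. Nearest to *Irf4* were *Brwd1* (0.49), *Clec10a* and *H2-DMa* (both 0.63), against 1.83. Nearest to *Irf1* were *Eno3* (0.15), *Rbm43* (0.15) and *Nudt16l1* (0.17), and to *Irf2* *Sh3kbp1* (0.17) and *Add3* (0.21). Nearest to *Irf9* were *Mccc1*, *Cyp4v3* (both 0.17) and *Slc9a4* (0.19). Members with small differences across groups lie close to many genes by this measure, the median being 0.50 for *Irf1* and 0.51 for *Irf9*.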

How the data were processed

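RNA from MH-S cells was made into Smart-seq2 libraries and aligned and quantified by the authors with the nf-core/rnaseq pipeline (STAR and Salmon, Ensembl annotation; genome build GRCm39 in the submitters' processing notes). The deposited values are whole-number counts per gene, not normalized, and may be rounded Salmon estimates. Counts were tested here as deposited with edgeR 4.0.16 (R 4.3.3): genes filtered by group, TMM scaling, quasi-likelihood fit of all 15 libraries without covariates, and Benjamini-Hochberg adjustment over all 16654 genes tested within each contrast. Genes passed at adjusted p below 0.05 and absolute log2 fold change above 0.5. Smallest exact permutation p for 3 against 3 would be 0.1, so per-gene permutation was not used. DESeq2 1.42.0 was an alternative, beside other scaling, filters, a replicate block, fewer libraries (6, or 9 without M1 and M2), equal depth, each library left out, and, added after the data were seen, the legacy quasi-likelihood method and a GC offset.

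Symbols came from GENCODE and NCBI tables (51487 of 78317 identifiers named). Transcript lengths, exon overlaps and GC content came from GENCODE M21, with GC content for 90.7% of genes tested, and promoters from RefSeq, both on GRCm38, not the build of the counts. Members and gene lists were chosen with earlier results of these data known. Named genes were the 8 members, the 3 nearest genes of each member that passed, and from each list the counts and the passing genes with the largest, smallest or most abundant values. Further genes named, such as *Batf3* and *Socs1* by library, were chosen after their values were seen. A few genes that this rule names are not reported here. The test was checked on simulated data. Total counts per library ranged from 8459643 to 68750050. A floor of 3 counts covers counting error only.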

Additional observations from a re-analysis of the deposited data

How the results depend on the processing

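*Irf7* against M0 in M1 and M2 cells and *Irf4* in M2 cells passed in every alternative that tested them, and 0 members passed with either rod type, or between them, in any alternative. The number of members that passed between M1 and M0 was 1 without the filter on low counts and at equal depth, in place of 2, and ran from 1 to 3 with 1 library left out. Between M2 and M0 it was 1 with at least 10 counts required in every library, which removes *Irf4*, and ran from 2 to 3 with 1 library left out. Between M1 and M2 it was 2 without the filter, with the 6 libraries compared alone and at equal depth, in place of 4, and ran from 3 to 5. Where a call was lost the cause was not tested, other than the removal of *Irf4*.

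The replicate numbers did not pair the libraries: 14 of 30 same-numbered pairs and 24 of 60 others had deviations correlated above 0.1, and 4 of 15 libraries correlated best with their own number. With the replicate block 2, 2, 4, 0, 0 and 0 members passed in the 6 comparisons, as without it.

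Signs turned only for differences that did not pass. *Irf3* between M1 and M2 was -0.0031 with DESeq2, -0.0011 with its size factors, -0.0081 without the filter, -0.029 with the block and -0.018 with 6 libraries, and ran from -0.27 to 0.21 with 1 library left out. *Irf2* between CaP and M0 was -0.0091, -0.0100, -0.021 (block) and -0.0080 (6 libraries), and ran from -0.16 to 0.20. With the GC offset *Irf5* between M1 and M0 was -0.044 and *Irf7* between M1 and M2 was 0.061. With 1 library left out these ran from -0.16 to 0.32 and from -0.45 to 0.26, *Irf1* between M2 and M0 from -0.011 to 0.31, *Irf2* between SiO2 and M0 from -0.080 to 0.096 and *Irf2* between CaP and SiO2 from -0.18 to 0.18. At equal depth *Irf4* between CaP and M0 was 1.69, from few counts, *Irf9* was -0.047 and *Irf2* between CaP and SiO2 was 0.23. Depth limits *Irf4* outside M2 cells, at 1 to 19 counts.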
